A study of Mus musculus with 12 samples.

Results

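The heat shock genes described here are 10 mouse genes, chosen by symbol among the 22276 gene symbols of the expression table: Hspa1a, Hspa1b, Hsph1, Dnajb1, Hspa8, Hsp90aa1, Hspe1, Hspd1, Hspb1 and Hspb7. Each symbol had 1 row with a value in all 12 libraries. RNA was sequenced from liver, skeletal muscle (quadriceps), brown adipose tissue (BAT) and white adipose tissue (WAT) of male C57BL/6J mice that were 17 weeks old. In each organ, 1 library came from each of 3 groups. NCD-veh mice were fed a normal chow diet and given vehicle, HFD-veh mice had a high-fat diet and vehicle, and HFD-ncls mice had the high-fat diet and narciclasine (ncls), a plant alkaloid. The diets began at 8 weeks of age and ncls or vehicle at 10 weeks. Levels are FPKM, the fragments per kilobase of exon scaled to all mapped fragments of a library, so that genes of different length can be compared. The number of mice behind a library is not given in the sources used here, and there was 1 library per organ and group, so a difference between groups within an organ has no replicate check and carries no test.

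Heat shock proteins are molecular chaperones that hold, fold or take apart other proteins. Under heat or other protein damage, heat shock factor 1 (HSF1) binds repeats of a short sequence, the heat shock element, in front of the stress-inducible genes and raises their transcription. Hspa1a and Hspa1b encode the inducible HSP70, and Hspa8 the HSP70 that cells make without stress. Dnajb1 encodes a J-domain (HSP40) protein that stimulates the ATPase of HSP70, and Hsph1 encodes an HSP110 that exchanges its nucleotide. Hsp90aa1 encodes the inducible cytosolic HSP90. Hspd1 and Hspe1 encode HSP60 and HSP10, the chamber and the lid of the mitochondrial chaperonin. Hspb1 and Hspb7 encode small heat shock proteins, which bind unfolded proteins without using ATP, and Hspb7 is known mainly from heart and skeletal muscle.

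The promoters show which of these genes carry heat shock element letters close to their start, and the stretches that hold them are printed because Hspa1a and Hspa1b can barely be told apart by sequence and Hspe1 and Hspd1 share one stretch. Promoter windows (250 bases before to 50 after a start, RefSeq, GRCm38.p6) were matched for 8 of the 10 genes, all but Hsp90aa1 and Hspa8, and placed on mm9, the build of the expression data, by exact match. Capitals mark the element core GAANNTTC or its inverted form TTCNNGAA, where N is any base. The 150 bases before the starts of Hspa1a (chr17:35109102-35109251, minus strand), Hspa1b (chr17:35096184-35096333, minus strand) and Hspb1 (chr5:136363639-136363788, plus strand) overlapped no annotated exon. For Hspe1 (chr1:55144897-55144926, plus strand), Hspd1 (the same interval, minus strand) and Hsph1 (chr5:150438854-150438883, minus strand) 30 bases are shown. The chr1 interval lies in the first exon of an annotated Hspd1 transcript and the chr5 interval in the first exon of Hsph1, both in the 5′ UTR.
Hspa1a: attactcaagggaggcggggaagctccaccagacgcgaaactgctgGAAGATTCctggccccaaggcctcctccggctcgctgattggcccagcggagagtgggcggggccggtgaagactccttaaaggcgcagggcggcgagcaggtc
Hspa1b: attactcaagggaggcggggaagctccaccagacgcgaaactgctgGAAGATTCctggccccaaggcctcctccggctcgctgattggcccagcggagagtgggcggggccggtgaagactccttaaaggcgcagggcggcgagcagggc
Hspb1: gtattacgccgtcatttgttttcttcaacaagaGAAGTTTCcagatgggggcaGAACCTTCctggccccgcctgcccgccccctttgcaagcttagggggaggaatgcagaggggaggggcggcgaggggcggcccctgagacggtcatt
Hspe1: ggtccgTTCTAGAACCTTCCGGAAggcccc
Hspd1: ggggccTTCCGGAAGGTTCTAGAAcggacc
Hsph1: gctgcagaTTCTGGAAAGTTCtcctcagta

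The Hspa1a and Hspa1b stretches were identical at 149 of 150 positions. The difference was T149G, counted from 1 at the 5′ end of the stretch with the Hspa1a base first, and in both genes the core lay 104 to 97 bases before the start. Hspb1 held 2 cores, the nearer of them 97 to 90 bases before its start. Hspe1 and Hspd1 lie head to head, and 1 run of repeats served both windows, 89 to 72 bases before the Hspe1 start and 144 to 127 bases before an Hspd1 start. The Hsph1 run began 15 bases after one of its RefSeq starts. The core was found in a window of 6 of the 8 genes, against 9.04% of all 27025 gene symbols in the promoter table. The inverted core was found for 3 of the 8, against 9.60%. Forms with a further alternating unit (the core followed by NNGAA, or the inverted core followed by NNTTC), which contain both cores, were in the windows of Hsph1, Hspe1 and Hspd1 and in those of 0.662% of all symbols, with all motifs searched on both strands. The windows of Hspb7 and Dnajb1 held neither core. These matches describe letters in a window and are not measured binding sites.

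**Figure D1:**
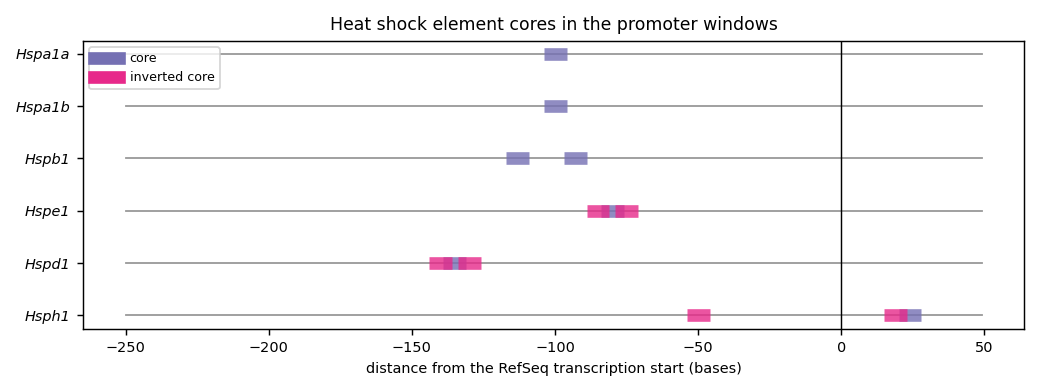
Position of the heat shock element core (purple) and its inverted form (pink) in the RefSeq promoter windows of the 6 genes that hold a match, as distance in bases from the transcription start at 0. The Hspa1a and Hspa1b cores sit at the same place, 104 to 97 bases before the start, and the overlapping matches of Hspe1 and Hspd1 are the same stretch read from either side.

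On mm9 the Hspa1a gene lies at chr17:35106144-35109069 and Hspa1b at chr17:35093381-35096183, both on the minus strand. Of the 50-base words in their transcripts, 1710 were shared, which is 59.4% of those of Hspa1a and 61.2% of those of Hspa1b. The split of fragments between them is therefore uncertain. Both genes still enter the counts and medians below separately, so a change they share is counted for each. In the order NCD-veh, HFD-veh, HFD-ncls, their summed level was 8.75, 6.91 and 8.50 FPKM in WAT and 1.16, 2.48 and 1.55 FPKM in BAT. It was 13.6, 3.41 and 5.28 FPKM in liver and 2.91, 3.20 and 4.36 FPKM in muscle. Hspa1a also overlaps Gm20481 on the other strand by 2213 bases. Hspe1 (chr1:55144976-55148151, plus strand) and Hspd1 (chr1:55134679-55145087, minus strand) overlap by 112 bases, and whether the libraries kept strand is not stated. The other 8 genes shared no 50-base word with another protein-coding gene whose symbol begins with Hsp or Dnajb, and pseudogenes were not searched.

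The libraries held approximately 18300000 (HFD-ncls WAT) to 26400000 fragments (HFD-veh muscle), estimated from the steps between low FPKM values. The defining markers of each organ were high where labelled, with Ucp1, the uncoupling protein of brown fat, at 740 to 770 FPKM in BAT and at most 3.92 FPKM elsewhere. RNA of other organs was present in some libraries. Taking the median level of 12 fast-twitch muscle markers over their level in the muscle of the same group, the muscle share was 1.89% in NCD-veh BAT, 0.767% in HFD-veh BAT and 0.112% in HFD-ncls BAT. The liver share was 0.553% in the muscle library of HFD-veh and 0.236% in the WAT library of HFD-ncls. It rests on 7 of 8 hepatocyte markers, since Alb had no value in liver. All 3 WAT libraries sat 0.57 to 0.62 above the mean of the 12 on the log2 scale over 7125 genes at 1 FPKM or more throughout, and the other 9 sat 0.13 to 0.31 below it. Comparisons of WAT with another organ are therefore given as deposited and after rescaling each library by its median ratio. Within an organ this offset differed little between groups, and the median log2 ratio of all genes was between -0.04 and 0.04 in every comparison.

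Across organs, the heat shock genes covered a wide range of levels, from 454 FPKM for Hspa8 in HFD-veh WAT to 0.0305 FPKM for Hspb7 in NCD-veh liver. At least 1 FPKM in all 12 libraries was reached by 7 of the 10 genes, and at least 10 FPKM in all 12 by 4 of them. Hspa8 made up between 29.0% (NCD-veh BAT) and 61.4% (NCD-veh liver) of the summed FPKM of the 10 genes. An additive model of organ and group, fitted with limma on log2(FPKM + 0.1) over 13648 genes and 12 libraries, called an organ difference for 10 of the 10 genes, but it called 97.9% of all genes (96.0% after rescaling, then with 9 of the 10), so the count says nothing particular to the heat shock genes. The pairwise organ tests called 78.5% of all genes for BAT against WAT, 82.3% for liver against WAT, 82.8% for muscle against WAT, 66.8% for liver against BAT, 68.2% for muscle against BAT and 74.7% for muscle against liver. These p-values rest on 3 libraries per organ that differ in diet and treatment, and the organs may have come from the same mice. In bulk tissue, more cells of a type and more RNA per cell cannot be told apart.

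**Figure D2:**
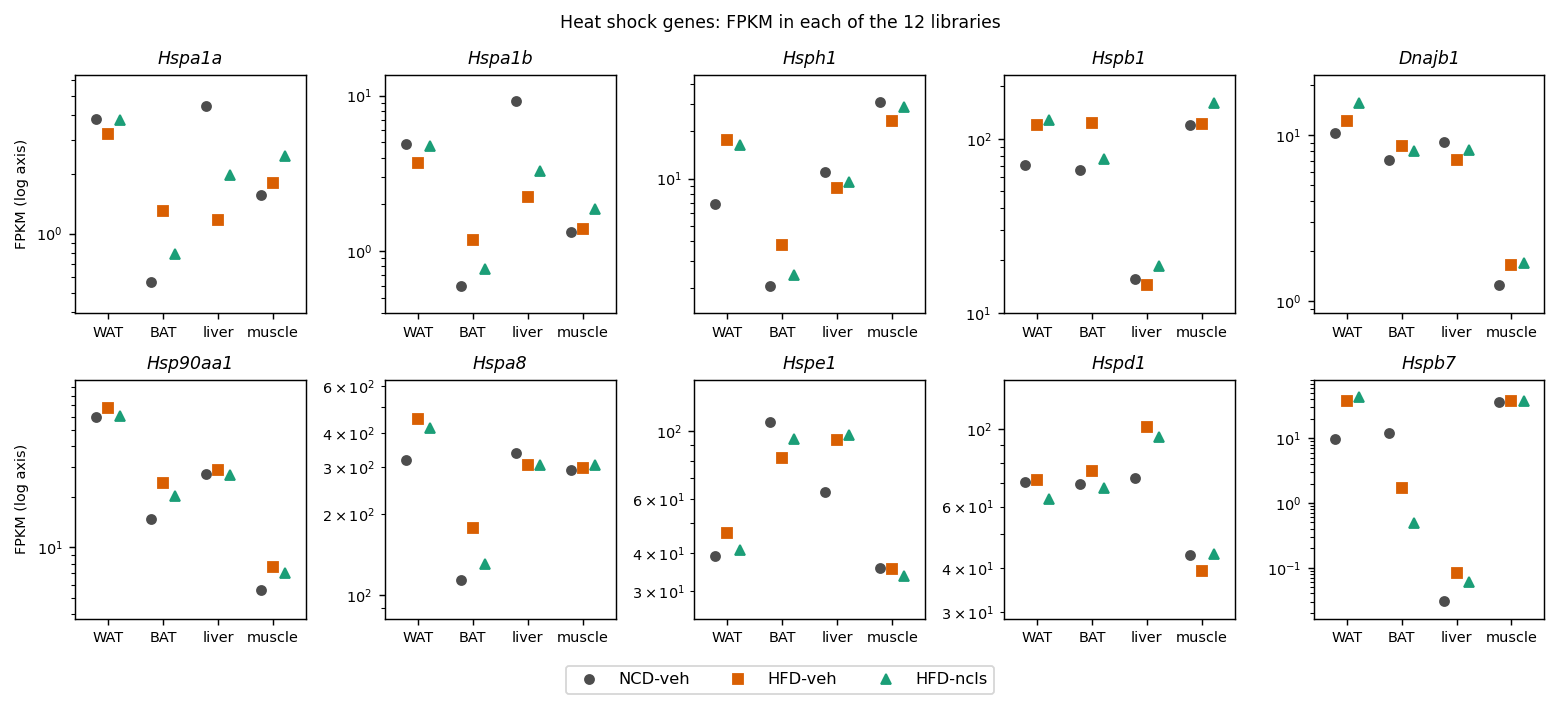
FPKM (log axis, range set for each gene) of the 10 heat shock genes in each of the 12 libraries, with 1 point per library for NCD-veh (grey circles), HFD-veh (orange squares) and HFD-ncls (green triangles). As deposited, the means of the 4 organs span the widest range for Hspb7 and Hsph1, although some of their organs overlap, and Hspd1 stays between 39.2 and 101 FPKM throughout.

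The inducible HSP70 genes were lowly expressed in all organs and lowest in BAT. Hspa1a measured 3.83 (NCD-veh), 3.21 (HFD-veh) and 3.77 FPKM (HFD-ncls) in WAT, 0.567, 1.301 and 0.787 FPKM in BAT, 4.45, 1.17 and 1.99 FPKM in liver and 1.58, 1.80 and 2.49 FPKM in muscle, in the same order. Hspa1b measured 4.92, 3.70 and 4.73 FPKM in WAT, 0.592, 1.18 and 0.762 FPKM in BAT, 9.18, 2.24 and 3.29 FPKM in liver and 1.33, 1.396 and 1.88 FPKM in muscle. The BAT values of Hspa1b lay below those of every other organ, whereas for Hspa1a the HFD-veh BAT value was above that of HFD-veh liver. Hspa1a was lower in BAT than in WAT by a log2 difference of -1.98 (SE 0.44, limma adjusted p = 0.00237), or -1.25 after rescaling (adjusted p = 0.0346). Muscle exceeded BAT by 1.10 for Hspa1a (adjusted p = 0.0481), while for Hspa1b the same difference was 0.82 and missed the threshold (limma adjusted p = 0.127). WAT, liver and muscle did not differ for Hspa1a beyond their spread, and the 95% interval of liver minus WAT ran from -1.68 to 0.30 as deposited, with a difference of 0.07 after rescaling. For Hspa1b, muscle minus liver was -1.37 (limma adjusted p = 0.0177), or -1.30 after rescaling (adjusted p = 0.0261). Its muscle minus WAT difference was -1.48 (limma adjusted p = 0.0107), or -0.64 after rescaling (adjusted p = 0.227). The lowest values rest on few fragments, with about 44 for Hspa1a in NCD-veh BAT.

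Their partners followed other orders (values again for NCD-veh, then HFD-veh, then HFD-ncls). Hsph1 was highest in muscle, at 30.8, 23.4 and 28.5 FPKM, and lowest in BAT, at 2.07, 3.79 and 2.43 FPKM. WAT held 6.87, 17.7 and 16.3 FPKM of it and liver 11.1, 8.71 and 9.51 FPKM. Muscle exceeded BAT by 3.31 on the log2 scale (SE 0.32, limma adjusted p = 1.42e-05), and liver and WAT did not differ (difference -0.37, adjusted p = 0.313, and 0.41 after rescaling). Dnajb1 was lowest in muscle, where it measured 1.25, 1.67 and 1.69 FPKM. It measured 10.3, 12.1 and 15.6 FPKM in WAT, 7.08, 8.64 and 8.01 FPKM in BAT and 9.08, 7.11 and 8.15 FPKM in liver. Its muscle values lay below all the others, by -2.30 against BAT (SE 0.16, limma adjusted p = 1.82e-06). The higher Dnajb1 level in WAT depended on the scaling, since BAT minus WAT was -0.66 as deposited (adjusted p = 0.00447) and 0.10 after rescaling (adjusted p = 0.639). So the J-domain gene and the HSP110 gene stood at opposite ends in muscle.

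Among the abundant cytosolic chaperones, Hsp90aa1 was the one whose organs never overlapped. It measured 59.9, 67.4 and 60.2 FPKM in WAT, 27.5, 28.7 and 26.8 FPKM in liver, 14.7, 24.2 and 20.3 FPKM in BAT and 5.55, 7.69 and 7.08 FPKM in muscle. Each pair of organs differed by limma under both scalings, the smallest deposited difference being liver over BAT at 0.52 (SE 0.13, adjusted p = 0.00576). Hspa8 was lowest in BAT, at 114, 178 and 131 FPKM. It measured 318, 454 and 418 FPKM in WAT, 338, 304 and 304 FPKM in liver and 292, 296 and 306 FPKM in muscle. Muscle and liver did not differ for Hspa8 (difference -0.08, limma adjusted p = 0.668). Its order against WAT turned with the scaling, with muscle minus WAT at -0.40 as deposited (adjusted p = 0.0401) and 0.48 after rescaling (adjusted p = 0.0243).

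On the deposited scale the mitochondrial chaperonin genes had the narrowest span of organ means, 2.12-fold for Hspd1 and 2.69-fold for Hspe1. After rescaling the widest organ difference of Hspe1 was 1.91 on the log2 scale, for BAT minus WAT. Hspd1 measured 70.6, 71.5 and 63.3 FPKM in WAT, 69.6, 75.7 and 67.6 FPKM in BAT, 72.3, 101 and 95.04 FPKM in liver and 43.8, 39.2 and 43.9 FPKM in muscle. Hspe1 measured 39.1, 46.5 and 40.9 FPKM in WAT, 107, 81.4 and 94.0 FPKM in BAT, 63.3, 93.8 and 97.1 FPKM in liver and 35.6, 35.5 and 33.6 FPKM in muscle. Muscle was low for both genes, by -0.75 for Hspd1 (SE 0.13, limma adjusted p = 0.000626) and -1.42 for Hspe1 (SE 0.17, adjusted p = 5.24e-05) against BAT. Liver and BAT did not differ for Hspe1 (difference -0.17, adjusted p = 0.409) and the Hspd1 difference of 0.32 just missed the threshold (limma adjusted p = 0.0513, or 0.0296 after rescaling). Muscle minus WAT changed sign with the scaling for both genes, from -0.69 to 0.18 for Hspd1 and from -0.27 to 0.61 for Hspe1.

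The small heat shock genes Hspb1 and Hspb7 were lower in liver than in each other organ. Hspb1 measured 121, 122 and 160 FPKM in muscle, 70.7, 120 and 128 FPKM in WAT, 65.8, 122 and 76.0 FPKM in BAT and 15.7, 14.5 and 18.5 FPKM in liver. All liver values lay below all others, by -2.39 against BAT (SE 0.22, limma adjusted p = 9.39e-06). WAT and BAT overlapped for Hspb1, and their difference of -0.27 (BAT minus WAT, adjusted p = 0.280) became 0.49 after rescaling (adjusted p = 0.0804). Hspb7 was even across the muscle libraries at 36.7, 37.2 and 38.0 FPKM. In liver it measured 0.0305, 0.0836 and 0.0610 FPKM, which is a handful of fragments. In the fat organs Hspb7 varied more than any other gene of the group, with 9.80, 37.4 and 43.1 FPKM in WAT and 12.2, 1.70 and 0.490 FPKM in BAT.

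The effect of the diet was read as the ratio of HFD-veh to NCD-veh in each organ, on log2(FPKM + 0.1), which understates the change of low genes, among genes at 1 FPKM or more in at least 1 of the compared libraries. A 2-fold ratio is the main threshold and a 1.4-fold ratio the second. WAT and BAT had most of the higher values, liver had the lower inducible HSP70 values, and muscle had none of the 10 past 1.4-fold.

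In WAT, 4 of the 10 genes were higher in HFD-veh past 1.4-fold and none was lower. Over all 12208 genes tested, 16.3% were higher and 13% lower by that much. Hspb7 was 3.81 times and Hsph1 2.57 times the NCD-veh level, the only members past 2-fold (9.11% of all genes were past 2-fold in either direction). Hspb1 (1.69 times) and Hspa8 (1.43 times) were the others. Hspa1a and Hspa1b were slightly lower, and their sum was 8.75 FPKM in NCD-veh and 6.91 FPKM in HFD-veh. The median log2 ratio of the 10 genes was 0.24, against 0.03 for all genes. The macrophage markers were higher in the same library, all 6 of them above NCD-veh and 3 past 1.4-fold, with a summed level of 661 FPKM in NCD-veh, 905 FPKM in HFD-veh and 1125 FPKM in HFD-ncls. All 4 endothelial markers were higher too, 3 of them past 1.4-fold (median log2 ratio 0.70), and 5 of 7 adipocyte markers were lower, 3 of them past 1.4-fold. The part of these cell types in the heat shock values was not tested.

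In BAT, 6 of the 10 genes were higher in HFD-veh past 1.4-fold, where 9.34% of 10444 genes were. They were Hspa1a (2.29 times), Hspa1b (1.998 times), Hspb1 (1.86 times), Hsph1 (1.83 times), Hsp90aa1 (1.65 times) and Hspa8 (1.56 times). Hspa1a and Hspa1b were under 1 FPKM in NCD-veh and HFD-ncls and passed the filter only through HFD-veh, where they were higher. With genes kept only at 5 FPKM or more, 3 of 7 genes were higher and the median log2 ratio was 0.28. Hspb7 went the other way, from 12.2 to 1.70 FPKM (8.23% of all genes were lower past 1.4-fold), and together with Hspa1a it was past 2-fold (4.29% of all genes in either direction). Hspe1 was at 0.763 times its NCD-veh level, so the chaperonin partners were not among the higher genes. The median log2 ratio of the 10 was 0.68, against -0.04 for all genes.

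Other markers moved in the same BAT libraries. Of 13 immediate-early genes, which respond to handling and acute stimuli, 11 were higher in HFD-veh past 1.4-fold, and their summed level was 108 FPKM in NCD-veh, 345 FPKM in HFD-veh and 265 FPKM in HFD-ncls. All 12 fast-twitch muscle markers were lower in HFD-veh past 1.4-fold, with a summed level of 2205 FPKM in NCD-veh, 912 FPKM in HFD-veh and 131 FPKM in HFD-ncls. Set against muscle levels, the muscle share corresponds to 28.2% of the Hsph1 value in NCD-veh BAT and 4.73% in HFD-veh BAT, and without it the Hsph1 log2 ratio was 1.23 in place of 0.84. It corresponds to 5.71% of Hspb7 in NCD-veh BAT, 16.8% in HFD-veh BAT and 8.67% in HFD-ncls BAT. Without that share the Hspb7 log2 ratio was -2.93 in place of -2.77. Of 5 macrophage markers tested, 2 were higher past 1.4-fold, and the sum of the 6 in the list was 40.1 FPKM in NCD-veh, 55.8 FPKM in HFD-veh and 34.6 FPKM in HFD-ncls. The part of the immediate-early genes and of macrophages in the higher values was not tested.

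**Figure D3:**
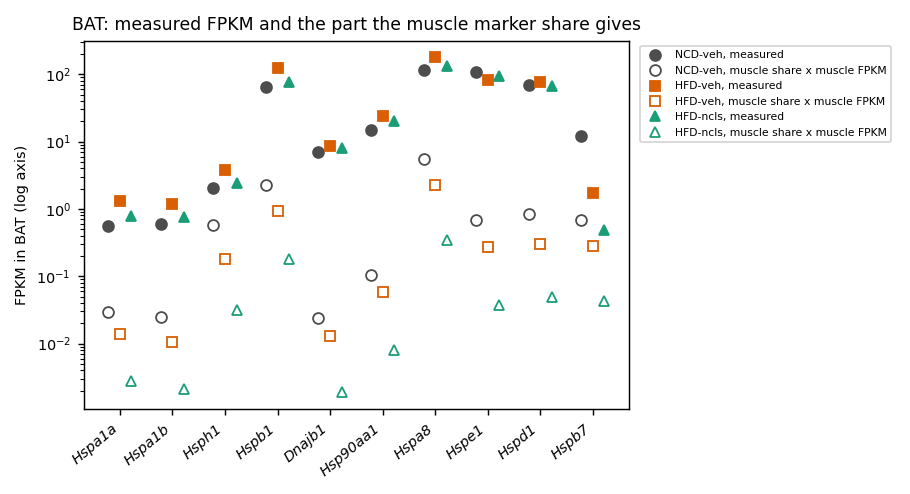
FPKM (log axis) of the 10 heat shock genes in the 3 BAT libraries (filled symbols) and the level that the muscle share of each library gives, its share multiplied by the FPKM in the muscle of the same group (open symbols). The open symbols lie well below the filled ones for Hspb7 in all 3 libraries (5.71% to 16.8% of the measured value), and come closest for Hsph1 in NCD-veh (28.2%).

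In liver, the inducible HSP70 genes were lower in HFD-veh, Hspa1a at 0.262 times and Hspa1b at 0.244 times the NCD-veh level, both past 2-fold (5.12% of 10016 genes in either direction) and the only members lower past 1.4-fold (10.5% of all genes). Their summed level was 13.6 FPKM in NCD-veh, 3.41 FPKM in HFD-veh and 5.28 FPKM in HFD-ncls. About 308 fragments lay behind the NCD-veh value of Hspa1a and 77 behind that of HFD-veh. Hspe1 (1.48 times) and Hspd1 (1.401 times) were higher past 1.4-fold, as were 13.3% of all genes, with Hspd1 at the threshold. Hspb7 was under the filter, and the median log2 ratio of the other 9 genes was -0.15, against 0.04 for all genes. Immediate-early genes went in the opposite direction to the inducible HSP70 genes with diet in this organ, with 8 of the 10 tested higher in HFD-veh past 1.4-fold. The muscle share in HFD-veh liver was 0.0614% and corresponds to 0.0948% of its Hspa1a value.

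In muscle, none of the 10 genes was past 1.4-fold in either direction, where 7.74% of 9587 genes were higher and 5.52% lower, and none was past 2-fold (4.11% in either direction). Hsp90aa1 came nearest at 1.39 times the NCD-veh level, followed by Dnajb1 at 1.33 times, and Hsph1 was at 0.758 times. Hspa8, Hspe1, Hspb1 and Hspb7 were within 1.5% of their NCD-veh level. The immediate-early genes were higher here too (11 of 13 past 1.4-fold).

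**Figure D4:**
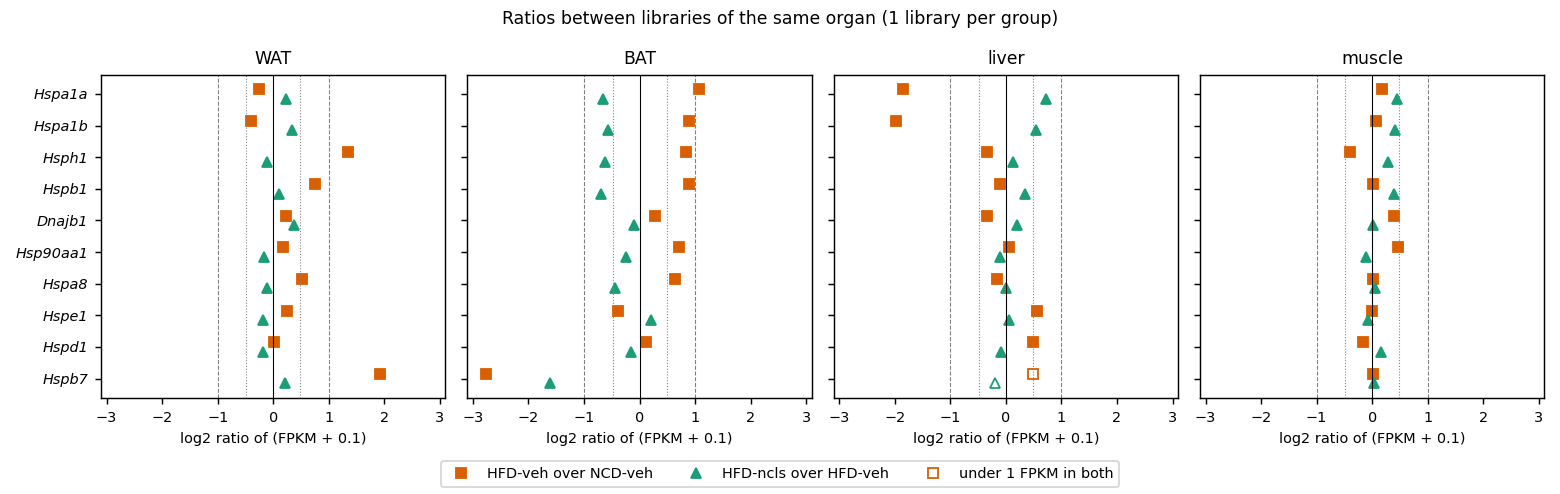
Log2 ratio of (FPKM + 0.1) for HFD-veh over NCD-veh (orange squares) and HFD-ncls over HFD-veh (green triangles), 1 panel per organ, with open symbols for a gene under 1 FPKM in both libraries, dashed lines at 2-fold and dotted lines at 1.4-fold. Past 2-fold with diet lie Hsph1 and Hspb7 in WAT, Hspa1a and Hspb7 in BAT, and Hspa1a and Hspa1b in liver, and with ncls only Hspb7 in BAT.

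The effect of ncls was read as the ratio of HFD-ncls to HFD-veh. Both ratios use the HFD-veh library of the organ, so a high or low value there enters them with opposite sign, and the values are given side by side without a measure of their relation.

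In BAT, 5 of the 10 genes were lower in HFD-ncls past 1.4-fold, where 6.28% of 10331 genes were, and none was higher (2.25% of all genes). Hspa1a and Hspa1b again passed the filter only through HFD-veh. So did Hspb7, which was at 0.490 FPKM in HFD-ncls, or about 34 fragments. With genes kept only at 5 FPKM or more, 1 of 6 genes was lower and the median log2 ratio was -0.21. The 5 genes lower under the main filter were Hspb7 (0.288 times the HFD-veh level), Hspa1a (0.605 times), Hspb1 (0.620 times), Hsph1 (0.641 times) and Hspa1b (0.645 times). Hspb7 was the only one past 2-fold (1.96% of all genes in either direction). With a pseudocount of 1 FPKM it was not, and the 5 FPKM filter removed it. Hspa8 was at 0.738 times, and Hspe1 alone was above HFD-veh, at 1.16 times. The HFD-ncls values of Hspb7 and Hspd1 lay below both NCD-veh and HFD-veh, and those of the other 8 genes lay between the NCD-veh and HFD-veh values. The median log2 ratio was -0.51, against -0.02 for all genes. All 13 immediate-early genes were below HFD-veh, 2 of them past 1.4-fold, and all 12 fast-twitch markers were lower past 1.4-fold, with a median log2 ratio of -2.77. All 5 macrophage markers tested were below HFD-veh, 3 of them past 1.4-fold (median -0.54). The part of these markers in the lower values was not tested. Without the muscle share the Hspb7 log2 ratio was -1.47 in place of -1.61.

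In liver, the HFD-ncls library exceeded HFD-veh past 1.4-fold for Hspa1a (1.71 times) and Hspa1b (1.47 times), as it did for 6.88% of 9956 genes. None of the 9 genes tested was lower by that much (8.07% of all genes), and none was past 2-fold (2.31% in either direction). Both stayed below their NCD-veh values, and with a pseudocount of 1 FPKM neither was past 1.4-fold. Of the 10 immediate-early genes tested, 8 were above HFD-veh in the same library and 5 were higher past 1.4-fold, and their part in these values was not tested. Hspb1 was at 1.27 times, and Hspa8, Hspe1, Hspd1, Hsp90aa1 and Hsph1 were within 10% of HFD-veh. In WAT none of the 10 genes was past 1.4-fold with ncls, where 6.39% of 12152 genes were higher and 1.28% lower, or past 2-fold (1.7% in either direction). In muscle none was past 1.4-fold, where 8.46% of 9694 genes were higher and 5.48% lower, or past 2-fold (3.8%). The largest muscle ratios were those of Hspa1a at 1.38 times, Hspa1b at 1.34 times and Hspb1 at 1.31 times HFD-veh. Hsph1 was at 1.22 times, Dnajb1 at 1.02 times and Hsp90aa1 at 0.921 times. In WAT the largest ratio was that of Dnajb1, at 1.29 times. The median log2 ratios were -0.01 in WAT, 0.13 in liver and 0.10 in muscle.

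Averaged over the 4 organs, limma called no gene for diet and none for ncls among 13648 (0% of all genes), and so 0 of the 10 heat shock genes. Unadjusted p-values under 0.05 were found for 1023 genes (7.50%) with diet, 1 of them a heat shock gene, and for 348 genes (2.55%) with ncls, none of them a heat shock gene. The heat shock gene was Hsp90aa1, higher in HFD-veh by an average log2 ratio of 0.35 (SE 0.11, 95% interval 0.10 to 0.61, adjusted p = 0.593). It was higher in 4 of 4 organs with diet, with log2 ratios from 0.06 to 0.72, and lower in 4 of 4 with ncls, from -0.25 to -0.10. An exact sign-flip test over the 4 organs, two-sided, gave p = 0.125 for each, the smallest that 4 organs allow. Any gene with the same sign in all 4 organs gets this value, so it adds nothing to the signs. Both comparisons also use the HFD-veh libraries, so they are not separate results. The average log2 ratio with ncls was -0.16 for Hsp90aa1 (SE 0.11, limma adjusted p = 1.00), and it was 0.06 without the HFD-veh muscle, HFD-veh BAT and HFD-ncls WAT libraries. No other heat shock gene had the same sign in all 4 organs in either comparison. The average fit measures agreement between organs, and a response in 1 organ counts in it as spread.

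The rest of the chaperone network was counted in lists of named genes that exclude the 10. Averaged over organs, limma called 0 members of every list for diet and for ncls. In WAT, 3 of the 5 other small heat shock genes tested were higher with diet past 1.4-fold (16.3% of all genes), with Hspb6 at 20.4 FPKM in NCD-veh and 42.6 FPKM in HFD-veh. In BAT, 2 of the 5 were lower with diet (8.23% of all genes) and 3 of the 5 with ncls (6.28%) past 1.4-fold, with Hspb6 at 65.1, 35.0 and 14.9 FPKM and Cryab, which encodes alpha-B-crystallin, at 42.6, 26.6 and 8.93 FPKM, in the order NCD-veh, HFD-veh, HFD-ncls. These genes are far more abundant in muscle, where Hspb6 measured 696 to 793 FPKM and Cryab 394 to 562 FPKM, and they moved with the muscle share of the BAT libraries given above, whose part in these values was not tested.

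The relatives of the inducible genes in BAT were counted against the same shares of all genes, 9.34% higher and 8.23% lower with diet. In the HSP110 and HSP70 family, 2 of 11 genes were higher with diet past 1.4-fold, Hspa12a (1.11 to 3.03 FPKM) and Hspa12b (6.32 to 13.2 FPKM), with 8 of 11 ratios above 0 and a median of 0.10 on the log2 scale. With ncls 10 of the 11 were below HFD-veh and 1 was lower past 1.4-fold (6.28% of all genes). Hspa1l, named here after its values were seen because it shares 232 of the 2877 50-base words of Hspa1a, measured 1.16 FPKM in NCD-veh BAT, 1.60 FPKM in HFD-veh and 1.28 FPKM in HFD-ncls. Of the J-domain genes, 1 of 22 was higher, Dnaja1 (3.29 to 5.12 FPKM), and of the HSP90 family and its co-chaperones none of 17 was higher and 2 were lower. The 8 subunits of TRiC, the cytosolic chaperonin, had none past 1.4-fold in any organ or comparison. The list of HSF transcription factors, which also holds the HSF-binding protein gene Hsbp1, had 1 of 4 past 1.4-fold in BAT with diet. This was Hsf4, which was lower at 2.74 against 5.12 FPKM. The BAG family and other HSP70 co-factors had none of 10 past 1.4-fold in BAT with diet.

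In liver, Hspe1 and Hspd1 were higher with diet. The list of 8 other mitochondrial chaperone and protease genes had none higher past 1.4-fold there (13.3% of all genes). It had 1 lower (10.5%), Clpx, at 0.277 times NCD-veh. Hspa9, the mitochondrial HSP70, came closest to the threshold at 85.5 FPKM in NCD-veh and 118 FPKM in HFD-veh. Bag3, a co-chaperone of HSP70 and a known HSF1 target, measured 19.4 FPKM in NCD-veh liver, 12.3 FPKM in HFD-veh and 18.9 FPKM in HFD-ncls. Of the 10 genes in its list it was the 1 lower with diet past 1.4-fold (10.5% of all genes). Bag2 was the 1 higher (13.3%), at 0.412 FPKM in NCD-veh and 1.34 FPKM in HFD-veh. All 8 TRiC subunits were above NCD-veh in HFD-veh liver, with a median log2 ratio of 0.35 against 0.04 for all genes.

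Genes with a pattern most like each heat shock gene were found by Pearson r on log2(FPKM + 0.1) after the mean of each organ was taken away, over the 12 libraries and 7118 genes at 1 FPKM or more in all of them. These values share libraries and scaling and are descriptions. For the summed Hspa1a and Hspa1b the closest were Pros1 (r = 0.947), Dedd, Zfp954, Msl1, H2-D1, Creb3l2, Rnf214, Npr1, Ifitm2 and Rpl14 (r = 0.903). For Hspd1 they were Immt (r = 0.972), Hspa9 (r = 0.956) and 1110004E09Rik, and for Hspe1 Atp6v1d (r = 0.972), Mrpl37 and Supv3l1. Hsph1 was closest to Tgm2 (r = 0.970), Ints7 and Myo18a, and Tgm2 was also among the closest to Hspa8, with Ppm1f (r = 0.949) and Nck1. Hspb1 was closest to Mfge8 (r = 0.949), Cyba and Cmtm3, Dnajb1 to Ubp1 (r = 0.957), Tax1bp3 and Csk, Hsp90aa1 to Rab11a (r = 0.937), Cnot7 and Cald1, and Hspb7 to Ube2j1 (r = 0.968), Gm16515 and Lum.

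Among themselves, the 10 genes split by the same measure. Of the 45 pairs, 29 had r above 0, with a median of 0.26. The highest r was 0.982, between Hspa1a and Hspa1b, which share much of their sequence. Hsph1, Hspb1 and Hspa8 formed the next closest pairs, with r of 0.904 (Hsph1 and Hspa8), 0.881 (Hspb1 and Hspa8) and 0.861 (Hsph1 and Hspb1). Hspe1 and Hspd1, which overlap and face away from the same repeats, had r of 0.600. The lowest was -0.940, between Hspa1b and Hspe1, whose diet ratios had opposite signs in liver and in BAT.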

How the data were processed

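Per the submitters' notes, TopHat (mm9) and Cufflinks were used, and the table deposited by the authors holds FPKM, 1 value per RefSeq symbol and library, with no further scaling stated. FPKM is not a count, and no count test was run. Depth was approximated from the spacing of low values and supports no interval. Samples were grouped by their titles, 1 library per organ and group.

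Ratios used a pseudocount of 0.1 FPKM and genes at 1 FPKM or more in at least 1 of the libraries compared. Organs and average effects were tested with limma 3.58.1 (R 4.3.3) with a variance trend, organ and group additive, 6 residual degrees of freedom and Benjamini-Hochberg adjustment over 13648 genes. Other values came from pandas 2.3.3, numpy 2.4.6 and scipy 1.17.1 under Python 3.11.15, and plots from matplotlib 3.10.9. Tested on simulated data, the average ncls fit found 194 of 200 genes made 4-fold different, with 9 false calls among 13430 genes. The simulated shift was the same in every organ, fell on genes that were not low, and had capped noise. Recovery of smaller or organ-specific differences was not simulated.

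The members and all gene lists were chosen with earlier results of these data known. Named genes were the 10 members, at most the 2 largest ratios per chaperone list and comparison, and the closest patterns (10 for summed Hspa1a and Hspa1b, 3 for each other member). The 1.4-fold threshold was added after seeing the data. Alternatives changed the pseudocount, the filter, the scaling, the removal of other organs' RNA, the variance trend and single libraries. Sequences are from RefSeq, and gene positions from an mm9 annotation.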

Additional observations from a re-analysis of the deposited data

Results flagged for a closer look

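The diet ratio (HFD-veh over NCD-veh, log2 scale) of Hspa1a, an inducible HSP70 gene, was 1.07 in BAT and -1.85 in liver, which are opposite directions in the only library pair of each organ. In BAT, Hspa1a passed the 1 FPKM filter only through HFD-veh, with about 44 fragments in NCD-veh and 95 in HFD-veh. With a pseudocount of 1 FPKM its BAT ratio was not past 2-fold. The ratio of Hspb7, a small heat shock protein gene, was 1.92 in WAT and -2.77 in BAT. Neither difference between organs was tested, since each organ had 1 library per group.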

How the results depend on the processing

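No member ratio past 1.4-fold reversed its direction, but the muscle diet median went from 0.02 to -0.01 on rescaling. Rescaling turned the sign of differences from WAT for Dnajb1 (BAT, liver), Hspb1 (BAT), Hspa1a, Hspa1b and Hsph1 (liver), Hspa8 (liver, muscle), and Hspd1 and Hspe1 (muscle). Effects averaged over organs, none of them called, changed sign for all members but Hsp90aa1, Hspa8 and Dnajb1 in some fit that left out 1 library, as for Hspb7 with ncls, from -0.39 to 0.46 without HFD-ncls BAT. Of the medians and counts recomputed, 19 moved by more than 0.1 on the log2 scale or 1.5 times, and 227 did not. With genes kept only at 5 FPKM or more, the median log2 ratio of the members was 0.38 in WAT and 0.28 in BAT with diet, and -0.11 in WAT and -0.21 in BAT with ncls. The counts past 1.4-fold were then 3 higher (BAT, diet), 1 lower (BAT, ncls), 1 lower (liver, diet) and 0 higher (liver, ncls), and those past 2-fold 1 (BAT, diet), 0 (BAT, ncls) and 1 (liver, diet). This filter removes Hspa1a everywhere and Hspa1b outside the liver diet comparison. With a pseudocount of 1 the BAT medians were 0.50 with diet and -0.34 with ncls. The counts past 1.4-fold were 2 lower (BAT, ncls), 1 higher (liver, diet) and 0 higher (liver, ncls), and those past 2-fold 1 (BAT, diet) and 0 (BAT, ncls), since it pulls low genes towards no difference. After rescaling, 1 member was higher past 1.4-fold in liver with diet, where Hspd1 fell under the threshold. In the leave-one-out fits the organ test called 9 to 10 members, diet 0 and ncls 0. The call lost was that of Hspa1a, without NCD-veh BAT (limma adjusted p = 0.0504) and also after rescaling (0.05001). Without the HFD-veh muscle, HFD-veh BAT and HFD-ncls WAT libraries the counts were 10, 0 and 0. No library could be left out of a ratio within an organ. No paired analysis was possible because the labels carry no replicate numbers. Values under 1 FPKM rest on few fragments.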

Other observations

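The list of further HSF1 targets, outside the chaperone families counted above, held both higher and lower values. Whether HSF1 had a part in these values was not tested. Mt1 and Mt2, metallothioneins that bind zinc and copper, were far lower in HFD-veh liver, where Mt1 measured 1431 FPKM in NCD-veh, 200 FPKM in HFD-veh and 227 FPKM in HFD-ncls, and Mt2 measured 584, 45.5 and 48.8 FPKM. In BAT both were lower with diet too, with Mt1 at 1281, 605 and 691 FPKM. WAT and muscle went the other way, with both genes higher in HFD-veh than in NCD-veh. In WAT, Mt1 measured 343 FPKM in NCD-veh and 554 FPKM in HFD-veh, and Mt2 measured 161 and 312 FPKM. In muscle the log2 diet ratio of Mt2 was 1.62. In WAT, Hmox1, which encodes heme oxygenase 1, was higher with diet, at 19.8, 60.2 and 75.5 FPKM. So was Serpinh1, the collagen chaperone HSP47, at 220, 454 and 393 FPKM. In liver Serpinh1 was low and also higher with diet, at 1.74, 3.71 and 4.39 FPKM.

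Chaperones of the endoplasmic reticulum, which answer mainly to the unfolded protein response, had all 12 members above NCD-veh in HFD-veh muscle. Their median log2 ratio was 0.30 against 0.03 for all genes. Past 1.4-fold were 2 of them, Pdia4 and Pdia3, where 7.74% of all genes were higher by that much. The same muscle library had a liver share of 0.553%, with all 8 hepatocyte markers higher past 2-fold, and Pdia4 measured 61.2 FPKM and Pdia3 113 FPKM in HFD-veh liver. The part of that share in these values was not tested. In liver with ncls all 12 were below HFD-veh, with a median of -0.14 against 0.02 for all genes. Past 1.4-fold was 1 of the 12, Dnajc10, which is near the 8.07% of all genes that were lower by that much. In HFD-veh liver Dnajb9 was at 17.0 FPKM against 34.8 FPKM in NCD-veh.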
